A study of Homo sapiens with 24 samples.

Results

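HMOX1 and 8 further genes of the NRF2 antioxidant response were followed in 4 human cell lines of acute myeloid leukemia (AML) under R406. The 9 genes were HMOX1, NQO1, GCLC, GCLM, TXNRD1, SLC7A11, BLVRB, FTL and PIR, chosen by name, out of 12165 genes with a probe set that carries a single gene symbol. For each gene the probe set with the highest mean stood for the gene, and all 9 were measured. R406 is the active form of fostamatinib, a drug that inhibits the tyrosine kinase SYK and other kinases, and the series title names integrin beta 3 signalling as a need of leukemia cells. Cells of each line received R406 at 4 µM for 24 h, or the matched solvent dimethyl sulfoxide (DMSO) for 24 h, with 3 arrays in each of the 8 groups. MOLM-14 cells are monocytic and carry MLL-AF9 together with a FLT3 internal tandem duplication. U937 cells are also monocytic, HL-60 cells promyelocytic and KG-1 cells early myeloblasts. Each line is 1 patient-derived culture and stands for no other AML cells. Whether the 3 arrays of a group are separate cultures is not stated in the labels, and a p-value here measures the spread of these arrays, possibly a technical one.

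NRF2, encoded by NFE2L2, is a transcription factor that KEAP1 and the CUL3 ubiquitin ligase mark for destruction. Oxidants and electrophiles stop that destruction, and NRF2 then pairs with a small MAF protein and binds antioxidant response elements in the promoters and enhancers of its targets. BACH1 occupies the same elements as a repressor, and heme, which removes BACH1, is an inducer of HMOX1 in particular. In myeloid cells HMOX1 is best known from macrophages that take up red cells, and in AML the pathway is known for its link to drug resistance. The 9 genes fall into 4 roles. HMOX1, BLVRB and FTL handle heme and iron. SLC7A11, GCLC and GCLM supply cystine and build glutathione. NQO1 and TXNRD1 are NAD(P)H-dependent reductases. PIR encodes pirin, an iron-binding nuclear protein and a known NRF2 target.

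Promoter windows from RefSeq (build GRCh38.p14, 250 bases before to 50 after a gene start) were searched for 7 of the 9 genes, in 8 windows, and HMOX1 and SLC7A11 were not searched. They are shown because the antioxidant response element is the sequence through which these genes are known to be read together. Its core was searched as TGACNNNGC on both strands, where N is any base. Such a match stood in 4 of the 8 windows, and in 13.3% of all 35116 windows of that length. The matches lay in GCLM, in both TXNRD1 windows and in PIR. They follow here with 30 bases each, 5′ to 3′ on the gene's strand, and the capitals mark the match.
GCLM, chr1:93909445-93909474, minus strand: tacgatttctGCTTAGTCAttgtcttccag
TXNRD1, first window, chr12:104215670-104215699, plus strand: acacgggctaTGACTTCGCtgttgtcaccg
TXNRD1, first window, chr12:104215761-104215790, plus strand: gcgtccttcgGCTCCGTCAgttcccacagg
TXNRD1, second window, chr12:104286920-104286949, plus strand: gtggatttctGCTTTGTCAttctgactctg
PIR, chrX:15493288-15493317, minus strand: gccgcgaagcGCTGAGTCAcggtgaggcta

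The first base of the match lay at -34 from the start in GCLM, at -99 and -8 in the first TXNRD1 window, at -102 in the second, and at 27 in PIR. The TXNRD1 match at -99 reads along the gene's strand and the other matches read on the opposite strand. In PIR it overlaps a match to the AP-1 core, searched as TGANTCA on both strands, which stood in 1 of the 8 windows and in 7.71% of all windows. The xenobiotic response element core of the aryl hydrocarbon receptor, GCGTG on both strands, stood in 6 of the 8 windows and in 36.5% of all windows. A match describes letters in a window and shows no binding. Bases beyond the windows were not searched, so a window without a match does not show that the gene lacks the element. The 250 bases before the start of GCLM and of NQO1 are printed because both genes were lower under R406 in MOLM-14 and higher in HL-60. Capitals mark the antioxidant element (GCTTAGTCA) and the xenobiotic core (CACGC on this strand) in GCLM. The NQO1 stretch holds neither, and the xenobiotic core of the NQO1 window starts at 2, after the printed bases.
GCLM, chr1:93909431-93909680, minus strand: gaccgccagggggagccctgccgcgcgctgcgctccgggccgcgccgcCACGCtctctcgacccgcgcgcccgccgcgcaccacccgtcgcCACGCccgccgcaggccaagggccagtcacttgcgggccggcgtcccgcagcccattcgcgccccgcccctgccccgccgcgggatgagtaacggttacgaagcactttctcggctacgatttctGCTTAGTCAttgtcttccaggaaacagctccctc
NQO1, chr16:69726561-69726810, minus strand: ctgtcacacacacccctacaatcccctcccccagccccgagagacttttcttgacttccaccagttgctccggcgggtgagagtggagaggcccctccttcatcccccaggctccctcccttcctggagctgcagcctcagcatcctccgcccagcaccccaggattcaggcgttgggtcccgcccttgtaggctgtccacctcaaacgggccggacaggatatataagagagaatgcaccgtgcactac

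The values are probe set intensities on a linear scale, with array medians between 19.1 and 21.4. Effects are R406 minus DMSO on log2(intensity + 1), given ± SE, and understate the change of dim genes. A call needed an adjusted p under 0.05 (limma, Benjamini-Hochberg over the 12165 genes). KG-1 R406 replicate 2 stood apart from its group, with a root mean square deviation from the group mean of 0.18 on the log2 scale, against 0.088 to 0.16 for the other 23 arrays. KG-1 effects of the 9 genes and KG-1 counts of the pathway lists are given with and without it, and the other KG-1 values include it. In MOLM-14 the 3′ to 5′ log2 ratio of the ACTB control probe sets, a sign of RNA integrity, was 0.82 under R406 and 0.48 under DMSO (exact permutation p = 0.1, the smallest that 3 against 3 arrays allow). In KG-1 it was 0.85 under R406 and 0.73 under DMSO, and in HL-60, the other way, 0.75 under R406 and 0.87 under DMSO, each with the same exact p. The same ratio of the GAPDH controls was -0.14 under R406 and -0.22 under DMSO in MOLM-14, and -0.065 under R406 and -0.17 under DMSO in KG-1, again with an exact p of 0.1. The part of RNA integrity in the effects of these lines was not tested. Summed intensities of 6 myeloid markers ran from 2479 to 2627 under R406 and from 1886 to 2094 under DMSO in MOLM-14, and from 1518 to 1606 under R406 and from 1340.4 to 1444 under DMSO in U937. They ran from 7132 to 7559 under R406 and from 9010 to 9409 under DMSO in HL-60, and from 489 to 572 under R406 and from 585 to 617 under DMSO in KG-1. The MOLM-14 sum rose with CEBPA (2226 under R406, 1605 under DMSO), while MPO (13.0 and 44.0) and FCGR1A (211 and 310) were called lower. The HL-60 sum fell with MPO (4981 under R406, 6416 under DMSO) and CEBPA (2012 and 2240), neither of them called. Of the 6, 4 were called higher and 2 lower in MOLM-14, where 31.1% of all genes were called higher and 25.0% lower. In U937 1 was called higher (6.10% of all genes) and in HL-60 1 lower (7.98%). In KG-1 2 were called higher (23.5%) and 2 lower (20.9%). SPI1 and CD68, also of the myeloid list, read on average within or below the range of the array medians in U937 and KG-1 in both groups. Both were among the genes called higher in MOLM-14 and were dim there too. SPI1 averaged 21.4 under R406 and 15.5 under DMSO, and CD68 16.5 and 8.33, near or below the array medians. The 7 erythroid markers measured summed to between 81.0 and 136 in every array, and in MOLM-14 to 104 to 136 under R406 and 98.2 to 114 under DMSO. In MOLM-14 3 of the 7 were called higher, against 31.1% of all genes, and these 3 averaged below the array medians. HBA1 averaged 11.4 under R406 and 7.46 under DMSO, HBG1 6.85 and 5.82, and TAL1, with overlapping arrays, 13.5 and 11.2.

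HMOX1, the inducible heme oxygenase that splits heme into biliverdin, carbon monoxide and iron, rose under R406 in all 4 lines. In MOLM-14 its intensity was 157, 142 and 117 under R406, against 20.2, 17.8 and 17.6 under DMSO. In U937 it was 147.5, 152 and 150.3 under R406, against 62.9, 52.7 and 56.0 under DMSO. The R406 means were 139 ± 20.5 in MOLM-14 and 149.9 ± 2.17 in U937 (SD, n = 3), a pair that was not tested, and R406 and DMSO arrays did not overlap in either line. In HL-60 it was 36.2, 40.4 and 53.7 under R406, against 19.5, 19.7 and 17.9 under DMSO. In KG-1 it was 31.9, 30.8 and 31.9 under R406, against 21.5, 13.3 and 14.7 under DMSO. The arrays did not overlap in these lines either. The R406 arrays of HL-60 and KG-1 lay below those of both monocytic lines, and the DMSO values of MOLM-14, HL-60 and KG-1 lay around the array medians. Fewer expressing cells and less RNA per cell cannot be told apart in such bulk samples.

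The HMOX1 effect was 2.83 ± 0.14 in MOLM-14 (adjusted p = 6.57e-14), a 7.48-fold ratio of mean intensities. It was 1.38 ± 0.14 in U937 (adjusted p = 1.38e-06), 1.13 ± 0.14 in HL-60 (adjusted p = 4.92e-06) and 0.92 ± 0.14 in KG-1 (adjusted p = 7.79e-06). By size it was the 4th highest effect of all genes in U937, the 38th in MOLM-14, the 46th in HL-60 and the 515th in KG-1. Over the 4 lines the mean effect was 1.57 ± 0.070. The MOLM-14 effect exceeded that of U937 by 1.45 ± 0.20, that of HL-60 by 1.70 ± 0.20 and that of KG-1 by 1.91 ± 0.20, each with an adjusted p under the threshold and the highest of them 2.26e-06. Between U937 and KG-1 the difference was 0.45, with a 95% interval of 0.040 to 0.87 (adjusted p = 0.0883). For U937 minus HL-60 the interval was -0.17 to 0.66, and for HL-60 minus KG-1 it was -0.21 to 0.62.

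**Figure D1:**
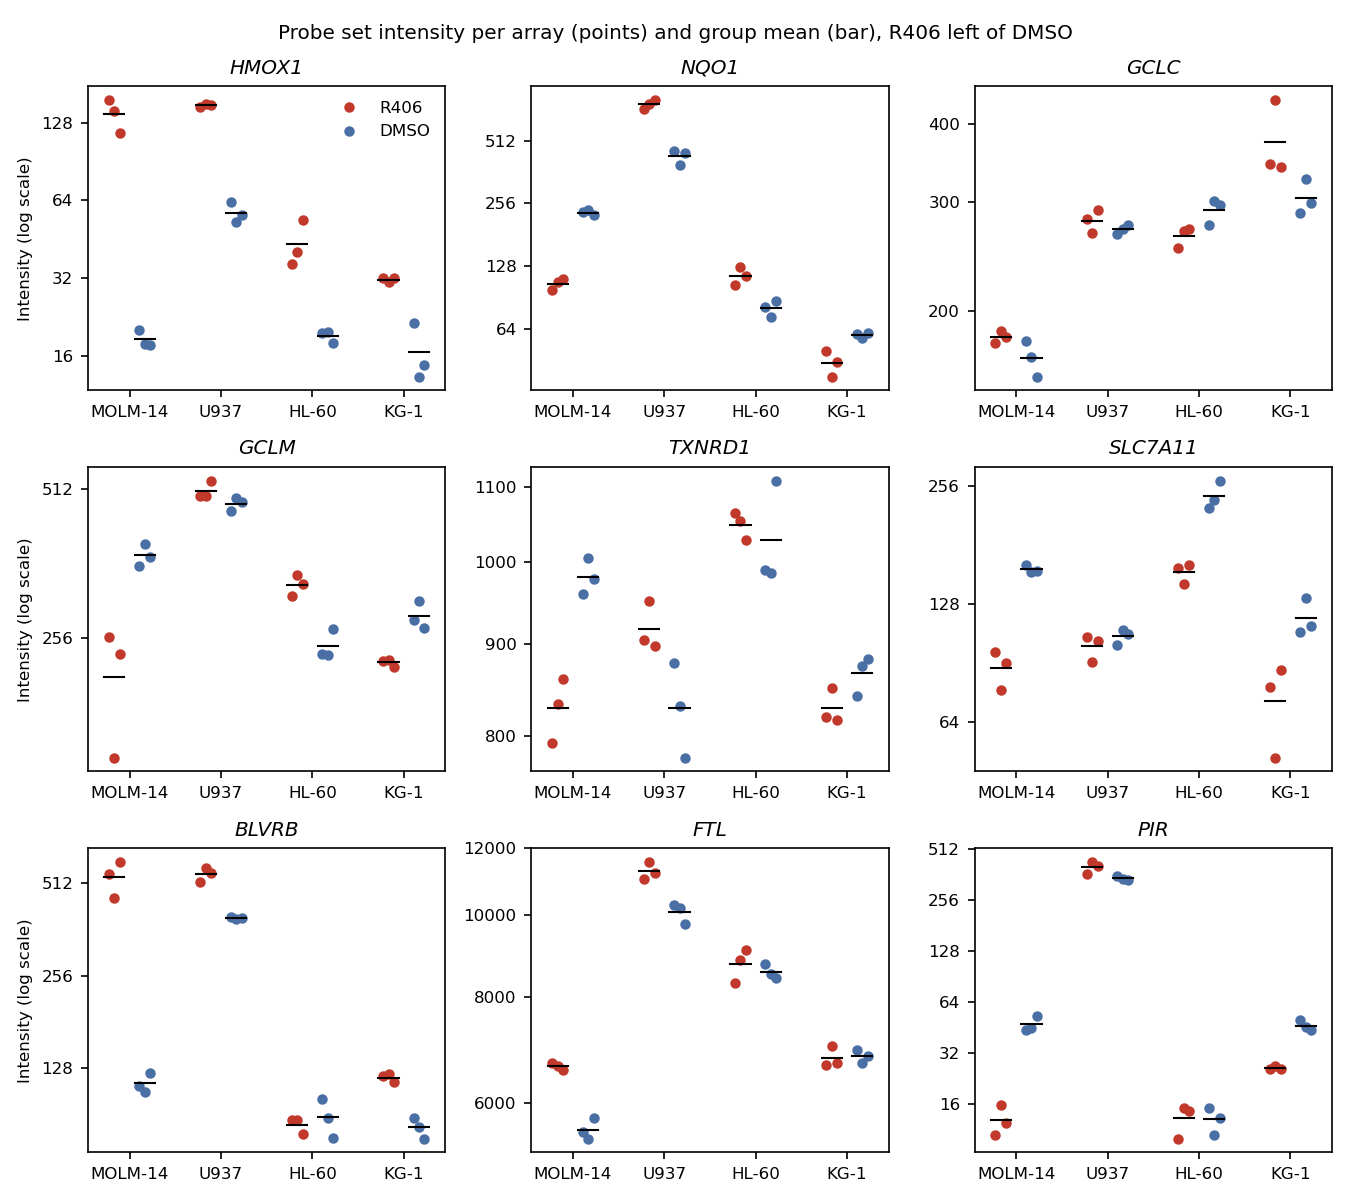
Intensity of each gene's probe set on a log axis, 1 point per array and a bar at the group mean of 3 arrays, with R406 (red) left of DMSO (blue) in each line. HMOX1 lies higher under R406 in all 4 lines, while NQO1 lies lower under R406 in MOLM-14 and KG-1 and higher in U937 and HL-60.

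BLVRB, a biliverdin and flavin reductase, rose in 3 of the 4 lines. MOLM-14 arrays read 549, 459 and 602 under R406, against 112, 107 and 123 under DMSO, an effect of 2.22 ± 0.098 (adjusted p = 9.05e-15). U937 arrays read 517, 577 and 552 under R406, against 397, 391 and 395 under DMSO, an effect of 0.47 (adjusted p = 0.00241). As with HMOX1, the R406 means of both monocytic lines lay near each other, at 537 ± 72.2 in MOLM-14 and 548 ± 29.96 in U937 (SD, n = 3), which was not tested. KG-1 arrays read 120.2, 122 and 115 under R406, against 88.2, 82.4 and 75.3 under DMSO, an effect of 0.54 (adjusted p = 7.85e-05). In HL-60 the groups overlapped, at 86.5, 86.4 and 78.2 under R406 and 101.2, 87.9 and 75.8 under DMSO. The HL-60 effect was -0.068, with a 95% interval of -0.27 to 0.14. The MOLM-14 effect exceeded that of HL-60 by 2.29 ± 0.14 (adjusted p = 6.84e-12), and that of U937 exceeded that of HL-60 by 0.54 ± 0.14 (adjusted p = 0.0165).

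FTL, the light chain of the iron store ferritin, rose in MOLM-14 and had small effects in every line. In MOLM-14 it read 6690, 6638 and 6562 under R406, against 5541, 5449 and 5759 under DMSO. All R406 arrays lay above all DMSO arrays, and the effect of 0.25 ± 0.054 passed the test (adjusted p = 0.000383). In U937 it read 11040, 11571 and 11212 under R406, against 10280, 10200 and 9775 under DMSO. These groups did not overlap, and the effect of 0.16 missed the threshold (adjusted p = 0.0568). It passed under 6 of 33 alternative settings (adjusted p of 0.00168 to 0.0347), among them a fit without the dimmest 33.33% of genes (0.0264). HL-60 and KG-1 arrays overlapped between R406 and DMSO, with intervals of -0.083 to 0.14 in HL-60 and -0.12 to 0.10 in KG-1. Both FTL probe sets are of a design that can bind related transcripts.

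NQO1, a quinone reductase and a standard readout of NRF2 activity, moved in opposite directions in different lines. It fell in MOLM-14, to 97.8, 107 and 111 under R406, against 231, 238 and 224 under DMSO. It also fell in KG-1, to 49.7, 37.6 and 44.2 under R406, against 60.1, 57.3 and 60.7 under DMSO. It rose in U937, to 729, 769 and 804 under R406, against 458, 391.9 and 446 under DMSO. It rose in HL-60 as well, to 103, 126 and 114 under R406, against 80.9, 72.8 and 86.7 under DMSO. In each line the R406 arrays lay entirely on one side of the DMSO arrays. The effects were -1.13 ± 0.094 in MOLM-14 (adjusted p = 4.51e-10), 0.83 ± 0.094 in U937 (adjusted p = 4.36e-06), 0.51 ± 0.094 in HL-60 (adjusted p = 0.000483) and -0.44 ± 0.094 in KG-1 (adjusted p = 0.000441). In KG-1 without R406 replicate 2 the effect was -0.34 (adjusted p = 0.00525). The U937 effect exceeded the MOLM-14 effect by 1.96 (adjusted p = 5.37e-11), and HL-60 exceeded KG-1 by 0.95 (adjusted p = 5.40e-06). The mean over the 4 lines was -0.057, with a 95% interval of -0.15 to 0.040. With the probe sets of each gene averaged it was -0.18 and passed the test (adjusted p = 0.0120).

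All 3 NQO1 probe sets had the same sign in every line. One further probe set gave -1.79 ± 0.17 in MOLM-14, 0.70 in U937, 0.63 in HL-60 and -0.94 in KG-1. The other was dim, with group means between 7.58 and 74.8, and gave effects from -0.61 to 0.35. Among the 3 SLC7A11 probe sets all signs were negative in every line.

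**Figure D2:**
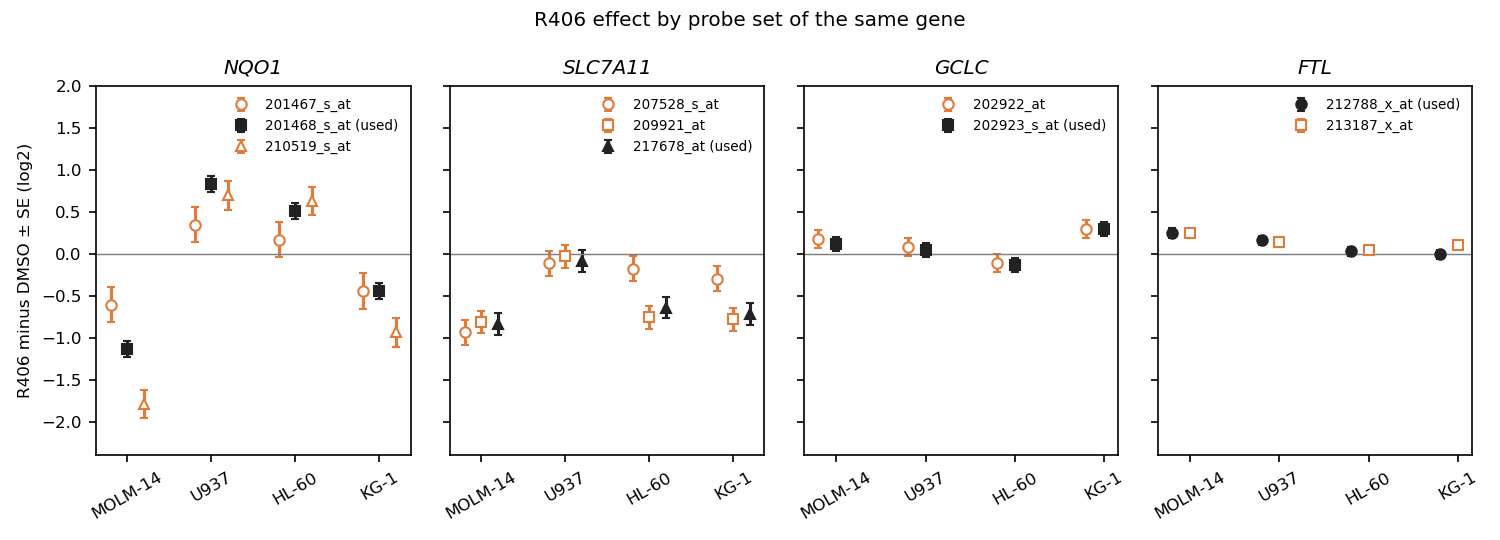
R406 minus DMSO (log2, ± SE) for each probe set of the 4 genes with more than 1, by line, with the probe set that stands for the gene filled. The 3 NQO1 probe sets lie below 0 in MOLM-14 and KG-1 and above 0 in U937 and HL-60.

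SLC7A11, the cystine and glutamate exchanger that brings in cystine for glutathione, fell in 3 of the 4 lines. In MOLM-14 it read 96.1, 77.0 and 90.4 under R406, against 161, 154 and 155 under DMSO. HL-60 arrays read 157, 144 and 161 under R406, against 224, 235 and 263 under DMSO. KG-1 arrays read 78.4, 51.8 and 86.6 under R406, against 108, 132 and 112 under DMSO. R406 and DMSO arrays were apart in these 3 lines, and the lowest KG-1 value is that of the array that stood apart. The effects were -0.83 ± 0.13 in MOLM-14, -0.64 ± 0.13 in HL-60 and -0.72 ± 0.13 in KG-1, with adjusted p of 7.83e-06, 0.00132 and 6.80e-05 in that order. In U937 the groups overlapped, at 105, 90.7 and 103 under R406 and 100.6, 109.8 and 107 under DMSO (effect -0.090, interval -0.36 to 0.18). By the probe sets that stood for the genes, SLC7A11 was the only one of the 9 with a negative effect in all 4 lines, and HMOX1 the only one with a positive effect in all 4. The other FTL probe set was positive in all 4 lines as well, from 0.040 in HL-60 to 0.25 in MOLM-14.

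GCLM, the modifier subunit of the enzyme that starts glutathione synthesis, fell in MOLM-14 and rose in HL-60. MOLM-14 arrays read 258, 147 and 237 under R406, against 357, 397 and 373 under DMSO, an effect of -0.85 ± 0.13 (adjusted p = 4.23e-06). Replicate 2 was the lowest R406 array, and without it the effect was -0.60 (adjusted p = 5.85e-07). HL-60 arrays read 312, 344 and 329 under R406, against 238, 236 and 267 under DMSO, an effect of 0.41 ± 0.13 (adjusted p = 0.0300). That call ended when HL-60 DMSO replicate 1 or 2, or HL-60 R406 replicate 2 or 3, was left out (adjusted p of 0.0787 to 0.104). KG-1 arrays read 231, 231 and 224 under R406, against 278, 305 and 268 under DMSO. These groups were apart, and the effect of -0.31 ± 0.13 missed the threshold (adjusted p = 0.0536). It passed under 8 of 33 alternative settings (adjusted p of 0.000644 to 0.0457), among them a fit of the KG-1 arrays alone (0.0136), median centring (-0.36, 0.0227) and leaving out any 1 of the MOLM-14 R406 arrays. The lowest of these p-values came without MOLM-14 R406 replicate 2. U937 had the highest levels, 496, 495 and 531 under R406 and 462, 490 and 482 under DMSO, with an interval of -0.18 to 0.35. GCLM differed between HL-60 and MOLM-14 by 1.26 ± 0.18, with effects on opposite sides of 0.

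GCLC, the catalytic subunit of the same enzyme, passed the test in KG-1 only, and with quantile normalization repeated in MOLM-14 as well (0.20, adjusted p = 0.0495). KG-1 arrays read 345, 438 and 341 under R406, against 288, 326 and 298 under DMSO, an effect of 0.29 ± 0.081 (adjusted p = 0.00470). The highest of these is again R406 replicate 2, and without it the effect was 0.18 (adjusted p = 0.0494). In a fit of the KG-1 arrays alone the call ended (adjusted p = 0.0679). MOLM-14 arrays read 178, 186 and 181 under R406 and 179, 169 and 157 under DMSO, with an interval of -0.057 to 0.28. The HL-60 effect was -0.14 (interval -0.31 to 0.032) and the U937 effect 0.046 (interval -0.12 to 0.22). KG-1 exceeded HL-60 in the GCLC effect by 0.43 ± 0.12 (adjusted p = 0.00484). Leaving the alternative settings aside, no line had both the catalytic and the modifier subunit called. The effects of GCLC and GCLM were not tested against each other.

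TXNRD1, the cytosolic thioredoxin reductase, fell by a small amount in MOLM-14. In MOLM-14 it read 794, 833 and 860 under R406, against 960, 1005 and 978 under DMSO. The effect of -0.24 ± 0.062 passed the test (adjusted p = 0.00178), and the call ended with quantile normalization repeated (-0.14, adjusted p = 0.0614). In U937 it read 904, 951 and 897 under R406, against 879, 832 and 778 under DMSO, with no overlap and an effect of 0.15 (adjusted p = 0.147). HL-60 and KG-1 arrays overlapped between the groups, with effects of 0.030 and -0.064. The U937 effect exceeded the MOLM-14 effect by 0.39 ± 0.087 (adjusted p = 0.000785).

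PIR fell in MOLM-14 and KG-1. In MOLM-14 it read 10.4, 15.8 and 12.4 under R406, against 43.8, 45.0 and 52.8 under DMSO, an effect of -1.81 ± 0.14 (adjusted p = 1.28e-10). In KG-1 it read 25.7, 26.9 and 25.9 under R406, against 50.3, 45.6 and 43.4 under DMSO, an effect of -0.80 ± 0.14 (adjusted p = 4.18e-05). The R406 values of MOLM-14 lay below the array medians, so this fall ended near the dim end of the arrays. U937 arrays, the brightest by far, read 367, 430 and 409 under R406 and 355, 342 and 336 under DMSO, with no overlap and an effect of 0.22 (adjusted p = 0.398). HL-60 arrays were dim in both groups, at 10.00, 15.1 and 14.5 under R406 and 15.2, 10.5 and 13.2 under DMSO. The U937 effect exceeded the MOLM-14 effect by 2.03 ± 0.20 (adjusted p = 1.62e-08).

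**Figure D3:**
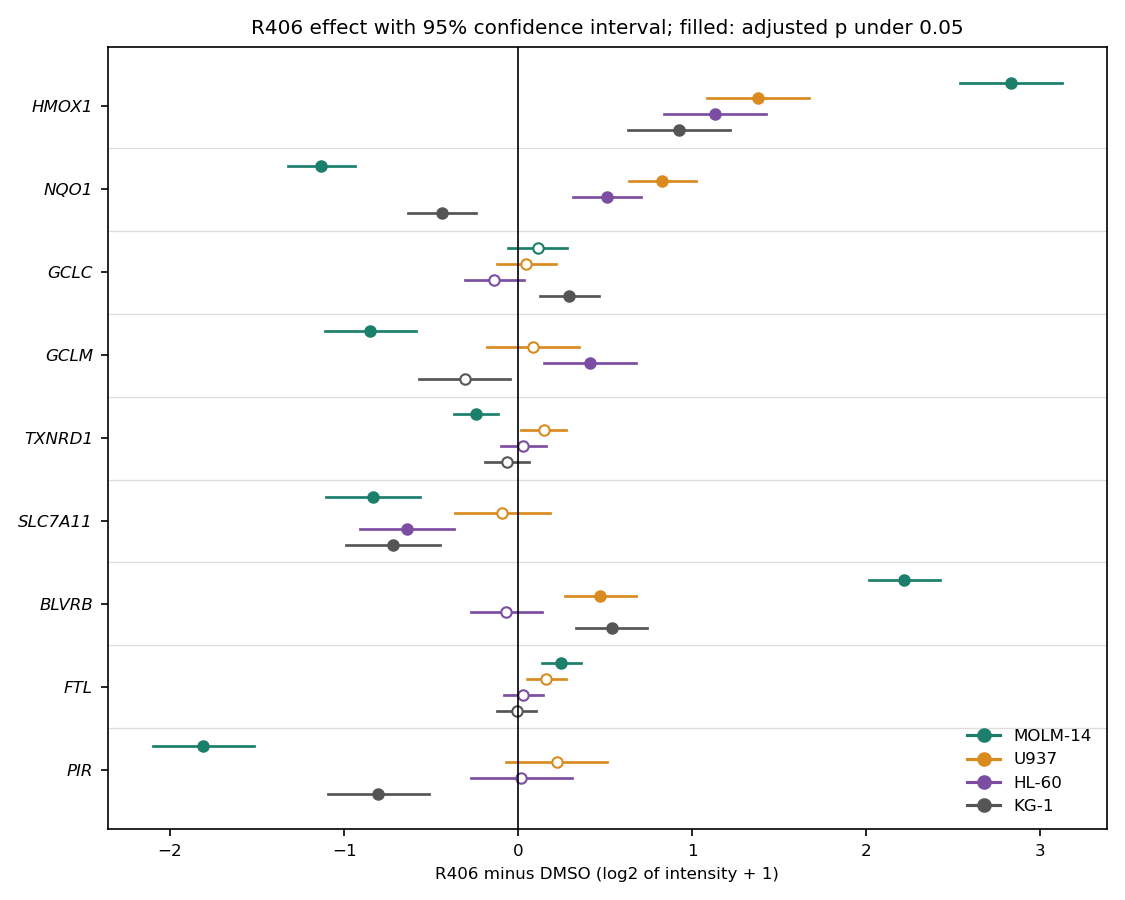
R406 minus DMSO in log2(intensity + 1) for each gene and line, with 95% intervals from limma. Filled points passed the test. HMOX1 is filled right of 0 in all 4 lines, SLC7A11 left of 0 in 3 lines, and NQO1 on both sides of 0.

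Counted by line, 3 of the 9 genes rose and 5 fell in MOLM-14, where 31.1% of all genes were called higher and 25.0% lower. The share that rose was near the background, since 3 of 9 is close to that share of all genes. In U937 3 rose and 0 fell (limma; 0 also at an unadjusted p under 0.05), against a background of 6.10% higher and 5.43% lower. Centring each array on its median turned the U937 counts over all genes from 742 higher and 660 lower to 597 higher and 807 lower, and left the calls of HMOX1, NQO1 and BLVRB in place. In HL-60 3 rose and 1 fell, with 7.20% of all genes called higher and 7.98% lower. In KG-1 3 rose and 3 fell, with 23.5% called higher and 20.9% lower. Without KG-1 R406 replicate 2 the same 6 genes were called in KG-1, with effects of 0.94 for HMOX1, 0.52 for BLVRB, 0.18 for GCLC, -0.34 for NQO1, -0.50 for SLC7A11 and -0.82 for PIR. The uncalled effects were then -0.32 for GCLM (adjusted p = 0.0919), -0.083 for TXNRD1 and -0.030 for FTL. The median effect of the 9 was -0.24 in MOLM-14, 0.16 in U937, 0.029 in HL-60 and -0.064 in KG-1, while the median over all genes was 0.068, 0.0029, -0.0029 and 0.020 in the same lines.

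For the mean over the 4 lines, HMOX1, BLVRB and FTL were called higher and GCLM, SLC7A11 and PIR lower, against a background of 29.1% higher and 23.9% lower. The mean effects were 0.79 ± 0.049 for BLVRB, 0.11 ± 0.027 for FTL, -0.17 ± 0.063 for GCLM, -0.57 ± 0.065 for SLC7A11 and -0.59 ± 0.070 for PIR. The R406 effect differed between lines by the F test in 9 of the 9 genes, and in 54.8% of all genes. Between pairs of lines, MOLM-14 differed from U937 in 7 of the 9 (background 43.8%), from HL-60 in 7 (45.2%) and from KG-1 in 6 (33.4%). BLVRB was the 1 gene that differed between U937 and HL-60 (background 7.23%). NQO1, SLC7A11 and PIR differed between U937 and KG-1 (33.3%), each with the higher effect in U937. Between HL-60 and KG-1 5 genes differed (35.6%), namely NQO1, GCLM and PIR with the higher effect in HL-60, and GCLC and BLVRB with the higher effect in KG-1.

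DMSO levels of the 9 genes also differed between lines, in 9 of 9 by the F test and in 68.1% of all genes. U937 held the highest DMSO level of HMOX1, NQO1, GCLM, BLVRB, FTL and PIR. HMOX1 averaged 57.2 ± 5.22 in U937 (SD, n = 3), and 19.03 ± 1.01, 18.5 ± 1.47 and 16.5 ± 4.40 in HL-60, MOLM-14 and KG-1, whose neighbours in that order were not separated (adjusted p of 0.861 and 0.304). NQO1 ran from 432 ± 35.4 in U937 over 231 ± 7.13 in MOLM-14 and 80.1 ± 6.97 in HL-60 to 59.4 ± 1.81 in KG-1, and each step passed the test. PIR had the widest span, with 344 ± 9.82 in U937 and 13.0 ± 2.34 in HL-60, a ratio of 26.5, and with MOLM-14 (47.2 ± 4.90) and KG-1 (46.4 ± 3.48) not separated between them (adjusted p = 0.920). BLVRB averaged 395 ± 3.08 in U937, 114 ± 8.51 in MOLM-14, 88.3 ± 12.7 in HL-60 and 82.0 ± 6.43 in KG-1, and the last step was not separated (adjusted p = 0.445). FTL separated at each step, from 10085 ± 272 in U937 over HL-60 and KG-1 to 5583 ± 159 in MOLM-14.

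GCLM averaged 478 ± 14.4 in U937, 376 ± 20.03 in MOLM-14, 284 ± 18.7 in KG-1 and 247 ± 17.1 in HL-60, with the last step not separated (adjusted p = 0.214). The other glutathione genes and TXNRD1 had another order. SLC7A11 was highest in HL-60 at 241 ± 20.1, then 157 ± 3.76 in MOLM-14, 117 ± 12.7 in KG-1 and 106 ± 4.80 in U937, the last step not separated (adjusted p = 0.406). GCLC was low in MOLM-14 at 168 ± 11.2, and the steps between KG-1 (304 ± 19.6), HL-60 (291 ± 14.2) and U937 (271 ± 4.36) did not pass (adjusted p of 0.567 and 0.344). TXNRD1 spanned little, from 1028 ± 69.95 in HL-60 to 830 ± 50.1 in U937, and only the step between MOLM-14 and KG-1 passed (adjusted p = 0.0188). In pairs of lines, the DMSO level differed for 9 of the 9 between MOLM-14 and U937 (background 47.0%), 7 between MOLM-14 and HL-60 (46.0%), and 7 between MOLM-14 and KG-1 (51.2%). It differed for 8 between U937 and HL-60 (48.2%), 6 between U937 and KG-1 (50.9%), and 5 between HL-60 and KG-1 (48.6%). All 6 genes that differed between U937 and KG-1 were higher in U937.

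**Figure D4:**
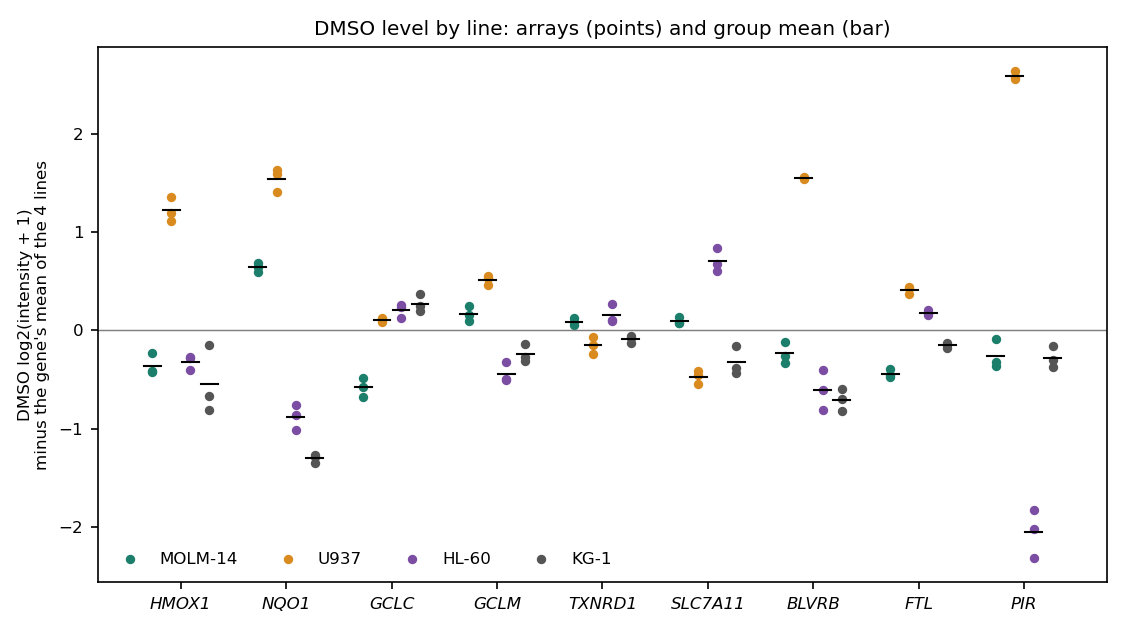
DMSO level of each gene by line, as log2(intensity + 1) of each array minus the gene's mean of the 4 lines, with a bar at the group mean of 3 arrays. U937 lies highest for HMOX1, NQO1, GCLM, BLVRB, FTL and PIR, and PIR spans the widest range.

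Across the 24 arrays, with each line's mean subtracted, the genes most like HMOX1 by Pearson's r among genes brighter than the median gene were NAGK (r = 0.970), ATP6V1H (0.962), SAT1 (0.960), TRAF3IP2 (0.956) and ANXA1 (0.955). NAGK is a kinase of N-acetylglucosamine, ATP6V1H a subunit of the vacuolar proton pump, SAT1 the spermidine acetyltransferase and ANXA1 annexin A1. All 5 rose in each of the 4 lines, with MOLM-14 effects between 0.78 for ATP6V1H and 2.66 for SAT1. Within the 9, r with HMOX1 was 0.88 for BLVRB and 0.87 for FTL, -0.80 for SLC7A11 and -0.74 for PIR, and -0.33 for NQO1. These values describe arrays that share the treatment contrast and the 4 lines, and carry no test.

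The regulators of the pathway were next. Of 12 measured genes of a list of 13, 7 rose and 2 fell in MOLM-14, where 31.1% of all genes rose and 25.0% fell. In KG-1 6 rose and 3 fell, against 23.5% and 20.9% of all genes, and without R406 replicate 2 the counts were 7 and 3. In HL-60 3 rose, and in U937 3 fell. The same backgrounds hold for the lists that follow, with 6.10% higher and 5.43% lower in U937 and 7.20% higher and 7.98% lower in HL-60. All 41 pathway genes that the naming rule chose had the same call in KG-1 without R406 replicate 2. NFE2L2 itself rose in KG-1 by 0.47 ± 0.072 and in MOLM-14 by 0.19 ± 0.072 (adjusted p = 0.0311), and gave 0.20 in U937 and 0.092 in HL-60, which did not pass. KEAP1 fell by 0.15 in KG-1 (adjusted p = 0.0476) and was not called elsewhere. BACH1, the repressor of HMOX1, rose with HMOX1 in MOLM-14, with mean intensities of 127 under R406 and 40.4 under DMSO (effect 1.62 ± 0.094), and in KG-1 with 109.9 under R406 and 69.7 under DMSO (0.64 ± 0.094). SQSTM1, the autophagy receptor that binds KEAP1, rose in MOLM-14 by 1.99 ± 0.078, in KG-1 by 0.81 and in HL-60 by 0.62, and MAFG, a small MAF partner, by 0.86 in MOLM-14 and 1.12 in KG-1. SQSTM1 in U937 gave 0.23 (adjusted p = 0.0554).

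HMOX2, the constitutive heme oxygenase, ran against HMOX1. It fell in MOLM-14, to a mean of 68.0 under R406, against 234 under DMSO (-1.78 ± 0.099), and in KG-1, to 64.8 under R406, against 159 under DMSO (-1.29 ± 0.099). It gave -0.11 in U937 and -0.048 in HL-60, which did not pass. BLVRA, a biliverdin reductase like BLVRB, fell in KG-1 by 0.39. It was not called in MOLM-14 (0.13), U937 (0.27) or HL-60 (0.062). In MOLM-14 BLVRA averaged 14.1 under R406 and 12.4 under DMSO, below the array medians. Of the 15 measured heme and iron genes, 6 rose and 5 fell in MOLM-14, 3 rose in U937, 3 fell in HL-60, and 4 rose and 5 fell in KG-1, with the same counts there without R406 replicate 2. The 4 of 15 higher in KG-1 were near the share of all genes (23.5%), and the MOLM-14 counts stand against 31.1% higher and 25.0% lower. TFRC, the transferrin receptor, fell in MOLM-14 by 1.98, in KG-1 by 0.84 and in HL-60 by 0.34. ALAD, an early enzyme of heme synthesis, rose in MOLM-14 by 1.07, in KG-1 by 0.82 and in U937 by 0.30, and UROS, a later one, fell in MOLM-14 by 0.77, in HL-60 by 0.46 and in KG-1 by 1.24.

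Among 19 glutathione enzymes besides GCLC and GCLM, 7 rose and 9 fell in MOLM-14 and 2 rose and 10 fell in KG-1 (3 and 10 without R406 replicate 2), with 3 higher and 1 lower in U937 and 2 higher and 4 lower in HL-60. The 7 of 19 higher in MOLM-14 were near the 31.1% of all genes, and the 9 lower stand against 25.0%. GSR, which regenerates glutathione, fell in MOLM-14 by 1.39 and in KG-1 by 0.75, and GSS, the last enzyme of its synthesis, by 1.24 in MOLM-14 and 0.35 in KG-1. Without KG-1 R406 replicate 2, GSS fell there by 0.22 (adjusted p = 0.0428). SLC3A2, the heavy chain partner of SLC7A11, fell in MOLM-14 by 1.31, in U937 by 0.64 and in KG-1 by 0.49, and its HL-60 value was -0.021. In the thioredoxin and peroxide list of 14, 10 fell and 2 rose in MOLM-14, and 9 fell and 2 rose in KG-1, or 7 and 2 without KG-1 R406 replicate 2, against 25.0% of all genes lower in MOLM-14 and 20.9% in KG-1. In HL-60 2 fell and 1 rose, and in U937 2 rose. PRDX1, a peroxiredoxin and NRF2 target, averaged 1127 under R406 and 3859 under DMSO in MOLM-14 (-1.78 ± 0.15), and CAT, the catalase, 2704 under R406 and 1176 under DMSO (1.20 ± 0.066). TXN, the substrate of TXNRD1, fell in MOLM-14 by 0.69 and in KG-1 by 0.73. TXNIP, which binds thioredoxin, rose in MOLM-14, U937 and KG-1 and fell in HL-60 by 0.88.

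The ATF4 list held 17 measured genes, ATF4 itself and its targets in amino acid supply and stress. SLC7A11 is driven by the same factor. Of the 17, 12 fell and 3 rose in MOLM-14, and 11 fell in U937. In HL-60 4 fell and 3 rose, and in KG-1 12 fell and 2 rose, also without R406 replicate 2. Of all genes, 25.0% fell in MOLM-14, 5.43% in U937, 7.98% in HL-60 and 20.9% in KG-1. ATF4, counted in this list, fell in U937 by 0.68 and was not called in the other lines. PSAT1, of serine synthesis, fell in all 4 lines, with effects from -3.78 in MOLM-14 to -0.77 in HL-60. Of 12 heat shock genes, 10 fell in MOLM-14 and 10 in KG-1, also without R406 replicate 2, against the same backgrounds. In HL-60 2 fell and 1 rose, and in U937 limma called 0 (1 higher and 2 lower at an unadjusted p under 0.05). In the aryl hydrocarbon receptor list of 5, 4 rose in MOLM-14, 3 in U937 and 4 in KG-1, with or without R406 replicate 2, and limma called 0 in HL-60 (0 also at an unadjusted p under 0.05). Of all genes, 31.1%, 6.10%, 23.5% and 7.20% rose in MOLM-14, U937, KG-1 and HL-60. CYP1A1, a detoxifying oxidase, rose by 1.28 in U937 and 2.40 in KG-1. AHR itself rose in MOLM-14 by 0.54 and fell in KG-1 by 1.05. Among 7 NADPH supply genes 5 fell and 1 rose in MOLM-14, 4 fell and 2 rose in KG-1 (4 and 1 without R406 replicate 2), 1 fell and 1 rose in U937 and 2 rose in HL-60, and ME1, the NADPH-forming malic enzyme, rose in MOLM-14 by 0.98 and in HL-60 by 0.69. In 16 detoxification and export genes 5 rose and 4 fell in MOLM-14, shares close to those of all genes (31.1% and 25.0%). In U937 2 rose and 2 fell, in HL-60 2 rose and 2 fell, and in KG-1 4 rose and 3 fell (4 and 1 without R406 replicate 2). AKR1C1, an aldo-keto reductase and NRF2 target, fell in MOLM-14 by 1.19, to a mean of 14.6 under R406, against 34.5 under DMSO. AKR1C3 fell in MOLM-14 by 0.42 and rose in HL-60 by 0.92 and in KG-1 by 1.53. In MOLM-14 AKR1C3 averaged 8.74 under R406 and 11.9 under DMSO, below the array medians. Its means were 21.3 and 10.8 in HL-60, within or below the range of these medians, and 146 and 49.8 in KG-1. FTH1 and SRXN1 were not analysed here.

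**Figure D5:**
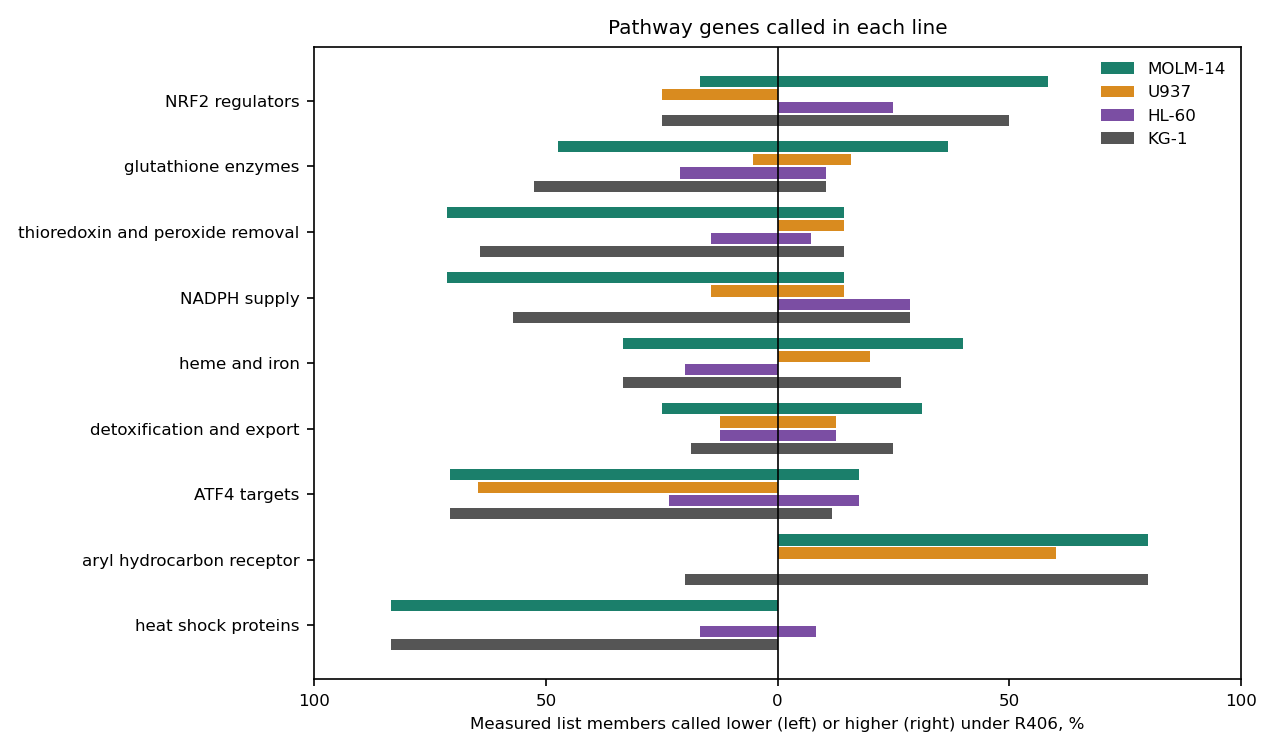
Share of the measured genes of each list, in percent, called lower (bars to the left) or higher (bars to the right) under R406, 1 bar per line. In the NRF2 regulator list more genes were called higher than lower in MOLM-14 and KG-1, and in the ATF4 list more were called lower in MOLM-14, U937 and KG-1.

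Markers of several cell types were read beside HMOX1, which is known to be high in macrophages. Of all genes, 31.1% were called higher and 25.0% lower in MOLM-14, and 6.10% higher and 5.43% lower in U937. In HL-60 7.20% were called higher and 7.98% lower, and in KG-1 23.5% higher and 20.9% lower. The summed intensity of the 6 measured monocyte and macrophage markers ran from 183 to 215 under R406 and from 105 to 117 under DMSO in MOLM-14, with 3 of 6 called higher. It ran from 162 to 189.8 under R406 and from 115 to 126 under DMSO in U937 (1 of 6 higher), and from 1141 to 1223 under R406 and from 454 to 569.6 under DMSO in HL-60 (2 of 6 higher). In KG-1, where HMOX1 also rose, it ran from 176 to 182 under R406 and from 511 to 552 under DMSO (1 of 6 lower). CD14, a defining monocyte marker, averaged below 8 in MOLM-14, U937 and KG-1 in both groups. CD163, MSR1 and MRC1 averaged between 5.39 and 8.91 in every group, below the array medians. Of these, CD163 was called in MOLM-14, with overlapping arrays. The MOLM-14 sum rose with CSF1R (74.1 under R406, 17.1 under DMSO) and ITGAM (94.6 and 66.2). The HL-60 sum rose most with CD14 (853 under R406, 279 under DMSO). In U937 and KG-1 the sums followed ITGAM, 137 under R406 and 80.1 under DMSO in U937, 139 and 487 in KG-1. Progenitor markers (4 measured) summed to 2372 to 2479 under R406 and 945 to 966 under DMSO in MOLM-14 (2 of 4 higher), and to 1776 to 2401 under R406 and 831 to 982 under DMSO in KG-1 (3 of 4 higher). In HL-60 they summed to 97.3 to 111 under R406 and 172 to 182 under DMSO (2 of 4 lower), and in U937 to 46.6 to 60.1 under R406 and 51.2 to 56.1 under DMSO. KIT, a receptor of early blood cells, averaged 144 under R406 and 17.9 under DMSO in MOLM-14 and 974 under R406 and 228 under DMSO in KG-1. Of 4 T and NK cell markers, NKG7, a granule protein, was the 1 called: it averaged 281 under R406 and 146 under DMSO in MOLM-14, 518 under R406 and 255 under DMSO in KG-1, and 115 under R406 and 141 under DMSO in HL-60. Megakaryocyte markers (4 measured) summed to 63.9 to 74.4 under R406 and 48.8 to 54.2 under DMSO in MOLM-14 (3 of 4 higher), and to 64.1 to 70.5 under R406 and 92.4 to 123 under DMSO in KG-1 (1 higher, 1 lower). The MOLM-14 calls lay near or below the array medians. PF4 averaged 11.7 under R406 and 9.99 under DMSO and GP1BB 21.5 and 16.3, both with overlapping arrays, and ITGA2B 22.2 and 13.0. The 3 B cell markers summed to between 25.1 and 37.5 in every array, and the 6 fibroblast and epithelial markers to 175 to 197 under R406 and 221 to 239 under DMSO in MOLM-14 (1 of 6 lower). The part of these markers' cell types in the HMOX1 effect was not tested.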

How the data were processed

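RNA from 24 samples was extracted with a Qiagen RNeasy kit, labelled with biotin and hybridised to Affymetrix high-throughput human U133 arrays (A set), per the labels' protocols. The authors summarised the probe set intensity values with RMA, per the submitters' processing notes; version, build and detection calls are not given in the sources used here. The deposited range, 3.41 to 12686, fits a linear scale, so log2(intensity + 1) was used. The dose is in µM in the treatment protocol, as used here, and in mM in the design text.

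The 22277 probe sets included 62 controls, 1923 without a listed symbol and 568 with more than 1, none of which was used, and symbols were updated through RefSeq gene IDs. limma 3.58.1 (R 4.3.3) fitted a mean per group for 8 groups with lmFit and eBayes, at 16 residual and 5.47 prior degrees of freedom and without a filter. P-values were adjusted by Benjamini-Hochberg over the whole table. The code was tested on simulated data. No 2 arrays held identical values. Same-numbered replicates did not deviate together (correlations -0.084 to 0.071), so the numbers were not used as pairs. Scan dates were not used. The precision is limited by the number of arrays.

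The 9 genes, the 9 pathway lists (116 of 135 genes measured) and the 8 marker lists were chosen with earlier results of these data known. Named pathway genes are a fixed set of regulators and up to 4 called genes of each list with the largest effect in any line, of which a part is given. Genes most like HMOX1 are the 5 with the highest r. Alternatives were median centring, quantile normalization repeated, a fit without the dimmest 33.33% of genes, a pseudocount of 16, averaged probe sets, each line alone, array weights, an intensity trend with robust prior, a replicate block, and each array left out in turn.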

Additional observations from a re-analysis of the deposited data

Results flagged for a closer look

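Each of the 9 genes had an R406 effect that differed between the 4 lines by the F test (limma, adjusted over all genes), as did 54.8% of all genes. The ranges below are the highest minus the lowest line on the log2 scale. The range was 1.91 for HMOX1, MOLM-14 minus KG-1 (adjusted p = 8.39e-08), and 2.29 for BLVRB, MOLM-14 minus HL-60 (2.84e-11). For FTL it was 0.26, MOLM-14 minus KG-1 (0.0200). U937 minus MOLM-14 gave 1.96 for NQO1 (7.05e-11), 2.03 for PIR (2.64e-08), 0.74 for SLC7A11 (0.00641) and 0.39 for TXNRD1 (0.00403). GCLM spanned 1.26, HL-60 minus MOLM-14 (1.66e-05), and GCLC 0.43, KG-1 minus HL-60 (0.0215). NQO1 was called in all 4 lines and lay on opposite sides of 0, lower in MOLM-14 and KG-1 and higher in U937 and HL-60. Groups of 3 arrays were too small to be screened for single outlying arrays by the same means.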

How the results depend on the processing

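Of the 21 called effects of the 9 genes in single lines, 18 kept their direction and call under all 33 alternatives, 24 that left out 1 array and 9 others. Leaving out an array of another line cannot move a line's effect or its direction. It can change only the shared spread and the adjusted p, so most leave-out settings could not alter the direction. The exceptions were GCLM in HL-60, where a replicate block also ended the call (0.41, adjusted p = 0.0560), TXNRD1 in MOLM-14 with quantile normalization repeated, and GCLC in KG-1 with that line alone. HMOX1 effects ran from 2.15 to 2.95 in MOLM-14, 1.18 to 1.45 in U937, 0.75 to 1.25 in HL-60 and 0.56 to 1.12 in KG-1. Of the 15 uncalled effects, 11 stayed uncalled throughout, and 3 of the 15 changed sign under some alternative. In U937, 5 of the 9 genes were called with a pseudocount of 16 and 5 with array weights, against 3 in the report and 3 to 4 when 1 array was left out; the added genes were TXNRD1 and FTL. Over all genes, array weights called 1311 higher and 1099 lower in U937, against 742 and 660. Without U937 R406 replicate 1 or 3, 434 or 428 genes were called lower. The test of a difference between lines ended for FTL with the replicate block (adjusted p = 0.0928). Apart from this and GCLM in HL-60, the block changed no call of the 9 genes. The GCLC and FTL differences also ended when single arrays were left out (adjusted p up to 0.0577 for GCLC and 0.0506 for FTL), and the GCLM mean effect with quantile normalization repeated (adjusted p = 0.0833) or 1 of 4 arrays left out (adjusted p of 0.0553 to 0.0606). The mean effect was called for NQO1 with probe sets averaged (-0.18, adjusted p = 0.0120) and for GCLC with quantile normalization repeated (0.11, adjusted p = 0.0306). The KG-1 ACTB ratio of R406 minus DMSO was 0.12 from the 5′ probe set and -0.0055 from the middle one, while GAPDH gave 0.10 and 0.084. Where no cause is named, the cause was not tested. Intensities near the array medians, as for HMOX1 under DMSO and PIR under R406 in MOLM-14, limit what fold changes can show.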
